A study of Mus musculus with 8 samples.

Results

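The 10 genes described here code for transcription factors of early-born retinal neurons, chiefly ganglion and amacrine cells. They are the Dlx genes Dlx1 and Dlx2, the Barhl genes Barhl1 and Barhl2, the Brn3 genes Pou4f1, Pou4f2 and Pou4f3, the LIM homeodomain gene Isl2, and the early B-cell factor genes Ebf1 and Ebf3. All 10 of the listed symbols were found among the 23284 genes of the count files, and all 10 were among the 15106 genes that passed the filter on low counts. The list was drawn up with the results of the same comparison of groups already known. The differences between groups are therefore given for the members as a description, with no test of their own.

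RNA was sequenced from microdissected peripheral retina of mice at postnatal day 12, in 4 libraries labelled Rb null and 4 labelled Rb null, TET-MYCN (hereafter Rb-null and TET-MYCN). In the Rb-null group the alpha enhancer of Pax6, which is active in the peripheral retina, drives Cre recombinase against floxed Rb1 alleles (Rblox/lox), so the tumour suppressor is lost where Cre was active. For the TET-MYCN libraries the series text gives the same Cre with Rosa26LSL-RTTA, a Cre-dependent transactivator, and TRE-MYCN, a MYCN transgene under its control. There the floxed Rb1 allele is named for the first group alone, whereas the genotype label and the series title give it to both. The labels used here mention no doxycycline. Cells that Cre did not reach remain in such tissue. Whether the libraries are separate animals is not stated, so the spread among them may be partly technical.

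As background, the retina makes its neurons in a fixed order from shared progenitors. Ganglion cells come first, under the bHLH factor Atoh7, which acts upstream of the Brn3 factors and Isl1, and these drive axon growth and survival of ganglion cells. Dlx1 and Dlx2 are homeodomain proteins that act in late-embryonic ganglion cell differentiation and in GABAergic interneurons of the forebrain. Barhl2 is a homeodomain repressor needed for amacrine subtypes and for survival of ganglion cells, and Barhl1 is its paralog. Ebf factors are DNA-binding proteins expressed in postmitotic ganglion, amacrine and bipolar cells. In normal retina these fates are settled before the second postnatal week.

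Gene counts per library ranged from 14872131 to 22873979. A count of 3 corresponded to 0.130 to 0.202 CPM (counts per 1000000, with library sizes scaled by TMM), which is taken as the floor of detection. Mouse Mycn stood at 108 to 339 CPM in the Rb-null group and 201 to 276 CPM in the TET-MYCN group, and Rb1 at 138 to 184 and 123 to 179 CPM. Neither gene separates the groups. Transgene reads need not be counted at mouse Mycn and floxed Rb1 can keep most exons, so these values check the labels little, and direction rests on the labels. Photoreceptor, bipolar, Müller glia and amacrine markers were all detected. The summed level of 6 Müller glia markers was 2825 to 4113 CPM in the Rb-null group and 1635 to 2512 CPM in the TET-MYCN group, and that of 6 bipolar markers was 501 to 1018 and 396 to 479 CPM. Neither sum overlapped between groups, and 0 of 6 markers had a positive log2 fold change in either list. The part of these shifts in the members' values was not tested. The summed level of 6 rod markers ran from 3078 to 14931 CPM in the Rb-null group and from 2127 to 5363 CPM in the TET-MYCN group. The sum of 6 progenitor markers ran from 404 to 1101 and from 833 to 1076 CPM. Both of these sums overlapped between groups, but 6 of 6 progenitor markers and 0 of 6 rod markers had a positive log2 fold change. The part of these differences in the members' values was not tested either. Lens markers were summed at 12.5 to 393 CPM in the Rb-null group, highest in Rb-null 2 and 3, and at 5.50 to 35.9 CPM in the others. In bulk tissue, fewer cells of a type and less RNA per cell cannot be told apart.

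In TET-MYCN 1 and 4 the Dlx and Barhl genes were highest and Pou4f1 was lowest, while Pou4f2 was the highest of its group in TET-MYCN 4. The promoter stretches of these genes, at the centre of the contrast, are printed here. They are RefSeq windows of 300 bases on GRCm38.p6, from 250 bases before to 50 bases after an annotated start, 5′ to 3′ on the gene's own strand. The deposited counts were made on another build (mm9), and no count was placed on these coordinates. A window was found for 9 of the 10 genes and 6 are shown. Capitals mark a match to CACGTG, the canonical E-box that MYC proteins and their partner MAX bind, to TAATTA, a core that many homeodomain proteins bind, or to TTCCCGC, an E2F site core. Dlx1 lies at chr2:71529195-71529494 on the plus strand and Dlx2 at chr2:71546705-71547004 on the minus strand. The upstream window of Barhl1 lies at chr2:28916619-28916918 on the minus strand and Barhl2 at chr5:106458117-106458416 on the minus strand. Pou4f1 lies at chr14:104467950-104468249 and Pou4f2 at chr8:78436598-78436897, both on the minus strand.
Dlx1: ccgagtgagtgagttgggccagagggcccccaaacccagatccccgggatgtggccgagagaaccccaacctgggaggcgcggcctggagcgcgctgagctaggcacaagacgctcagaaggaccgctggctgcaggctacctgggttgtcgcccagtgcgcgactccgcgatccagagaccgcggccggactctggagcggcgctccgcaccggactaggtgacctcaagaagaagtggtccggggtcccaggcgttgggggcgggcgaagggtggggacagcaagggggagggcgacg
Dlx2: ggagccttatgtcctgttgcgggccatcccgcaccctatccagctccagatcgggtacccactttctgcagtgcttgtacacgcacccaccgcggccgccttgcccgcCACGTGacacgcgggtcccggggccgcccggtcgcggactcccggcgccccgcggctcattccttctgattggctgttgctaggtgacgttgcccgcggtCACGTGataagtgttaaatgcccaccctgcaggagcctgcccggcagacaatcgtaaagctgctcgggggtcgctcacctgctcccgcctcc
Barhl1: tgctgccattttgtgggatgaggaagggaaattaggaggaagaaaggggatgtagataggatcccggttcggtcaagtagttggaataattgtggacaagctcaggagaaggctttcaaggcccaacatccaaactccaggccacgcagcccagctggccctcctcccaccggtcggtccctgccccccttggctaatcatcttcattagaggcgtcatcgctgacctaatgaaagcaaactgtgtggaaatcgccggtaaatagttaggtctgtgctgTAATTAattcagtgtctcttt
Barhl2: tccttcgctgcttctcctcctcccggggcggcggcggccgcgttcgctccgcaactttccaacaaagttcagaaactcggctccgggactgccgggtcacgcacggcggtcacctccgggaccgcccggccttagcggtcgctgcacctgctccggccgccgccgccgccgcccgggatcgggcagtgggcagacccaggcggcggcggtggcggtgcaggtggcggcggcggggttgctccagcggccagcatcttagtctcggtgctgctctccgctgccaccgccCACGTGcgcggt
Pou4f1: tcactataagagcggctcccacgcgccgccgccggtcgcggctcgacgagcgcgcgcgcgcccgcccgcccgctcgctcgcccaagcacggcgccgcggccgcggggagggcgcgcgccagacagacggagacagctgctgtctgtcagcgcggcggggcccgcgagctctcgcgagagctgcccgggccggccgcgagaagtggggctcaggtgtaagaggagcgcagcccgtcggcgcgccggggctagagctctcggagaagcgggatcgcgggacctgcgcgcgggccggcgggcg
Pou4f2: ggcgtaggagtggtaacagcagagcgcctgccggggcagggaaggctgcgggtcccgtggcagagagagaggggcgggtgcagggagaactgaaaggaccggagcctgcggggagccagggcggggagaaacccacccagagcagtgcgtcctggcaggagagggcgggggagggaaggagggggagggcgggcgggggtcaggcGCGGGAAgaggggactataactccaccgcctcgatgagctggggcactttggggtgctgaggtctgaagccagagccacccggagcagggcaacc

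Both strands were searched, and the E-box and the homeodomain core each read the same on both. No matches overlapped. CACGTG occurred 2 times in the Dlx2 window, with first bases 142 and 42 bases before the start. It occurred 1 time in the Barhl2 window, beginning at base 39 of the transcribed part, and 0 times in those of Dlx1, Barhl1, Pou4f1 and Pou4f2. Of 32851 mouse promoter windows of the same length 7.15% held CACGTG. The homeodomain core TAATTA occurred 1 time, in the upstream Barhl1 window from base 30 of the transcribed part, and 5.29% of all windows held it. The E2F core TTCCCGC, which 4.6% of all windows held, occurred 1 time among the 11 windows of the 9 genes. A second E2F core, TTGGCGC, found in 2.45% of all windows, occurred 0 times. The match lay in the Pou4f2 window on the opposite strand, with its first base 45 bases before the start. The windows differ in base composition, with 57 CpG in Pou4f1, 42 in Barhl2, 29 in Dlx2, 27 in Dlx1, 18 in Pou4f2 and 9 in the upstream Barhl1 window, against a median of 7 over all windows. These matches describe the letters in these windows and no more.

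Dlx1 and Dlx2, neighbouring genes that act in part redundantly, were low in the Rb-null group and high in TET-MYCN 1 and 4. Dlx1 stood at 1.43, 3.40, 0.655 and 0.538 CPM in Rb-null 1 to 4 and at 24.5, 5.37, 3.04 and 32.5 CPM in TET-MYCN 1 to 4. The groups overlap, since TET-MYCN 3 lies under Rb-null 2. The means were 1.51 ± 1.32 and 16.4 ± 14.5 CPM (SD, n = 4 each), and the fitted log2 fold change was 3.42 ± 0.82 (standard error). Behind these values are 102 counts in the 4 Rb-null libraries together and 1221 in the TET-MYCN group. Exact Poisson 95% intervals, which cover counting error only, were 0.232 to 1.06 CPM in Rb-null 4, from 8 counts, and 30.1 to 35.1 CPM in TET-MYCN 4, from 646 counts. Dlx2 stood at 2.95, 4.13, 0.655 and 2.09 CPM in Rb-null 1 to 4 and at 15.5, 5.93, 4.44 and 25.6 CPM in TET-MYCN 1 to 4. Its groups do not overlap, although TET-MYCN 3 and Rb-null 2 lie within each other's counting intervals (3.52 to 5.53 and 3.21 to 5.24 CPM). The means were 2.46 ± 1.46 and 12.9 ± 9.82 CPM, a log2 fold change of 2.38 ± 0.62. The count ratio of Dlx1 to Dlx2 ranged from 0.258 to 1 in the Rb-null group and from 0.684 to 1.58 in the TET-MYCN group.

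Other genes of the Dlx loci were mostly at the floor. Dlx1as, the antisense transcript that overlaps Dlx1, had 4, 3, 0 and 3 counts in Rb-null 1 to 4 and 38, 16, 4 and 68 in TET-MYCN 1 to 4, highest in the libraries where Dlx1 was highest. How strand was used in counting is not given in the sources used here, and without it Dlx1 and Dlx1as cannot be told apart where they overlap. It did not pass the filter on low counts. Dlx4, Dlx5 and Dlx6 each had at most 3 counts in any library. Dlx3 was the only other Dlx gene tested, at 1.18 to 2.85 CPM in the Rb-null group and 2.47 to 4.78 CPM in the TET-MYCN group, and its log2 fold change was 0.91 ± 0.30 (adjusted p = 0.221, edgeR's quasi-likelihood test with Benjamini-Hochberg adjustment). It was highest in TET-MYCN 4, but TET-MYCN 1 lay within the Rb-null range. Of 10 paralogs and neighbours found in the files (the other Dlx, Ebf, Isl and Barx genes and Dlx1as) 4 were tested, 2 positive and 2 negative. By edgeR 0 passed and 1, Dlx3, had an unadjusted p under 0.05, against 15.8% of all genes. DESeq2 called 1, Dlx1as, against 3.2% of all genes, and limma-voom called 0.

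Barhl1 followed the Dlx genes closely, whereas Barhl2 differed far less. Barhl1 stood at 2.09, 1.82, 0.852 and 0.942 CPM in Rb-null 1 to 4 and at 39.4, 5.02, 2.70 and 37.4 CPM in TET-MYCN 1 to 4. The groups do not overlap, although TET-MYCN 3 (2.70 CPM) and Rb-null 1 (2.09 CPM) lie within each other's counting intervals. TET-MYCN 1 and 4 stand far above the other 6 libraries. The means were 1.43 ± 0.622 and 21.1 ± 19.97 CPM, from 98 and 1544 counts, and the log2 fold change was 3.86 ± 0.86, the largest of the 10. Barhl2 was already abundant in the Rb-null group, at 42.0, 48.7, 36.9 and 39.1 CPM. In TET-MYCN 1 to 4 it stood at 66.5, 50.8, 41.6 and 93.5 CPM. TET-MYCN 3 lies within the Rb-null range, so the groups overlap, and the highest levels were again in TET-MYCN 1 and 4. The means were 41.7 ± 5.11 and 63.1 ± 22.7 CPM, a log2 fold change of 0.60 ± 0.22. The count ratio of Barhl2 to Barhl1 was 20.1 to 43.3 in the Rb-null group, 10.1 and 15.4 in TET-MYCN 2 and 3, and 1.69 and 2.50 in TET-MYCN 1 and 4.

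**Figure D1:**
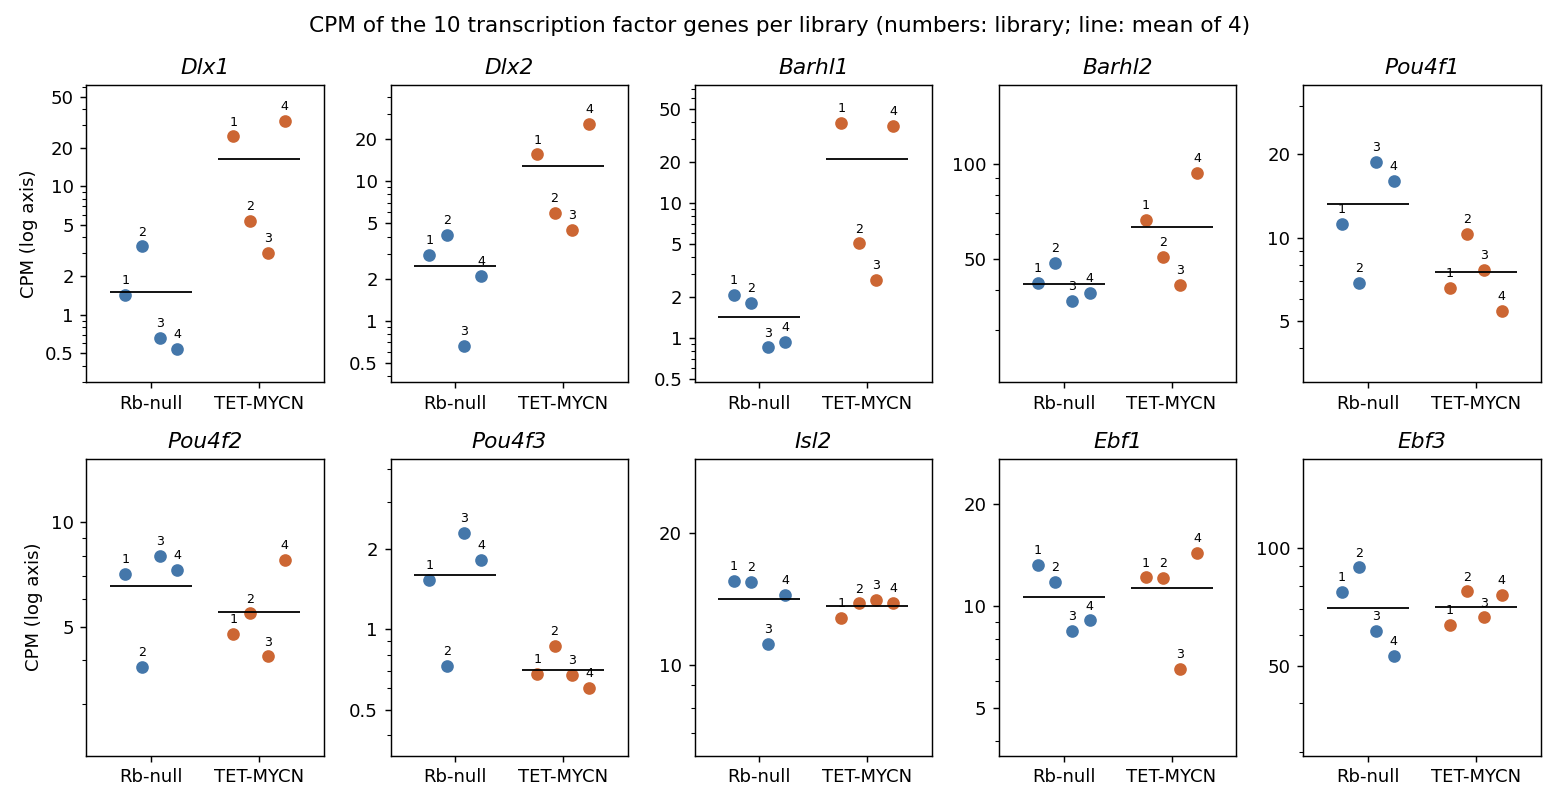
CPM of each of the 10 genes (log axis) in the 4 Rb-null and 4 TET-MYCN libraries, with points numbered by library and a line at the mean of each group. Dlx1, Dlx2 and Barhl1 are highest in TET-MYCN 1 and 4, Pou4f1 and Pou4f3 are highest in Rb-null 3 and 4, and Isl2, Ebf1 and Ebf3 have nearly equal means in the groups.

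TET-MYCN 1 and 4 also stood apart for some markers of other cells. The summed level of 6 pigment epithelium and ciliary body markers was 108 and 151 CPM there, compared with 20.4 and 44.9 CPM in TET-MYCN 2 and 3, and the Rb-null group ranged from 18.5 to 29.2 CPM. All 4 of these markers that were tested had a positive log2 fold change. The sum of 6 horizontal cell markers was 1317 and 858 CPM in TET-MYCN 1 and 4 and 589 and 360 CPM in the other 2 of that group. It ranged from 375 to 478 CPM in the Rb-null group, and 5 of 6 markers were positive. The 6 amacrine markers were summed at 945 and 782 CPM in TET-MYCN 1 and 4, against 904 to 1070 CPM in the Rb-null group, with 3 of 6 positive. No marker in these lists was at 0 in every library, and their part in the levels of the Dlx and Barhl genes was not tested. In a refit without TET-MYCN 1 and 4, chosen with the data in view, the log2 fold changes were 1.47 for Dlx1, 1.07 for Dlx2, 1.42 for Barhl1 and 0.15 for Barhl2.

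The Brn3 genes, the POU homeodomain factors of ganglion cells, had the opposite sign. Pou4f1 (Brn3a) stood at 11.3, 6.86, 18.7 and 16.02 CPM in Rb-null 1 to 4 and at 6.61, 10.3, 7.64 and 5.44 CPM in TET-MYCN 1 to 4. Rb-null 2 lies within the TET-MYCN range, so the groups overlap. The means were 13.2 ± 5.25 and 7.51 ± 2.09 CPM, a log2 fold change of -0.81 ± 0.31. Pou4f2 (Brn3b), which acts earliest of the 3 in ganglion cell differentiation, stood at 7.08, 3.83, 7.996 and 7.27 CPM in Rb-null 1 to 4. In TET-MYCN 1 to 4 it stood at 4.76, 5.45, 4.10 and 7.76 CPM. Its lowest and highest libraries are both Rb-null, and the log2 fold change of -0.24 ± 0.27 is smaller than its standard error. The means were 6.54 ± 1.85 and 5.52 ± 1.59 CPM. TET-MYCN 4, the library lowest for Pou4f1, was the highest of its group for Pou4f2.

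Pou4f3 (Brn3c), which marks a subset of ganglion cells, was the lowest of the Brn3 genes. It stood at 1.53, 0.729, 2.29 and 1.82 CPM in Rb-null 1 to 4 and at 0.680, 0.865, 0.675 and 0.604 CPM in TET-MYCN 1 to 4. Only Rb-null 2 lies within the TET-MYCN range, and the values rest on 104 and 55 counts. The means were 1.59 ± 0.656 and 0.706 ± 0.112 CPM, a log2 fold change of -1.15 ± 0.35. The count ratio of Pou4f1 to Pou4f2 was 1.59 to 2.34 in the Rb-null group, 1.39 to 1.897 in TET-MYCN 1 to 3 and 0.701 in TET-MYCN 4. Rb-null 2 was thus the Rb-null library with the lowest level of all 3 Brn3 genes. It also had the lowest sum of 6 ganglion cell markers, 257 CPM, against 386, 564 and 575 CPM in Rb-null 1, 3 and 4. The same sum was 455, 390, 313 and 330 CPM in TET-MYCN 1 to 4, with 1 of 6 markers positive, and its part in the Brn3 levels was not tested.

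Isl2, the LIM homeodomain factor of ganglion cells that project to the opposite side of the brain, had nearly equal means in the groups, 14.2 ± 2.05 and 13.7 ± 0.562 CPM. It stood at 15.6, 15.5, 11.2 and 14.5 CPM in Rb-null 1 to 4 and at 12.9, 13.8, 14.1 and 13.9 CPM in TET-MYCN 1 to 4. The whole TET-MYCN range lies inside the Rb-null range. The log2 fold change was -0.05 ± 0.14. Its paralog Isl1, which marks ganglion, starburst amacrine and ON bipolar cells, was at 48.9 to 98.9 CPM and 54.6 to 84.1 CPM (-0.20 ± 0.22, adjusted p = 0.715, edgeR's quasi-likelihood test).

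Ebf1 and Ebf3 had nearly equal means in the groups. Ebf1 stood at 13.2, 11.8, 8.45 and 9.08 CPM in Rb-null 1 to 4 and at 12.2, 12.2, 6.52 and 14.4 CPM in TET-MYCN 1 to 4. TET-MYCN 3 was the lowest and TET-MYCN 4 the highest of all 8 libraries, and the log2 fold change was 0.09 ± 0.25. Ebf3 stood at 77.3, 89.4, 61.5 and 52.9 CPM in Rb-null 1 to 4 and at 63.6, 77.5, 66.5 and 75.8 CPM in TET-MYCN 1 to 4. All 4 TET-MYCN libraries lie inside the Rb-null range, and the log2 fold change was 0.01 ± 0.16. The signs of both small values changed when single libraries were left out, with ranges of -0.05 to 0.27 for Ebf1 and -0.11 to 0.15 for Ebf3. Among the paralogs, Ebf4 was at 29.2 to 34.5 CPM and 24.96 to 30.3 CPM (-0.15 ± 0.11, adjusted p = 0.530, edgeR's quasi-likelihood test). Ebf2 was at 0.328 to 0.662 CPM and 0.225 to 1.26 CPM (0.60 ± 0.46, adjusted p = 0.557 by the same test). The annotation places antisense genes over Isl2, Ebf1 and Ebf3 as well, with the same limit on strand.

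**Figure D2:**
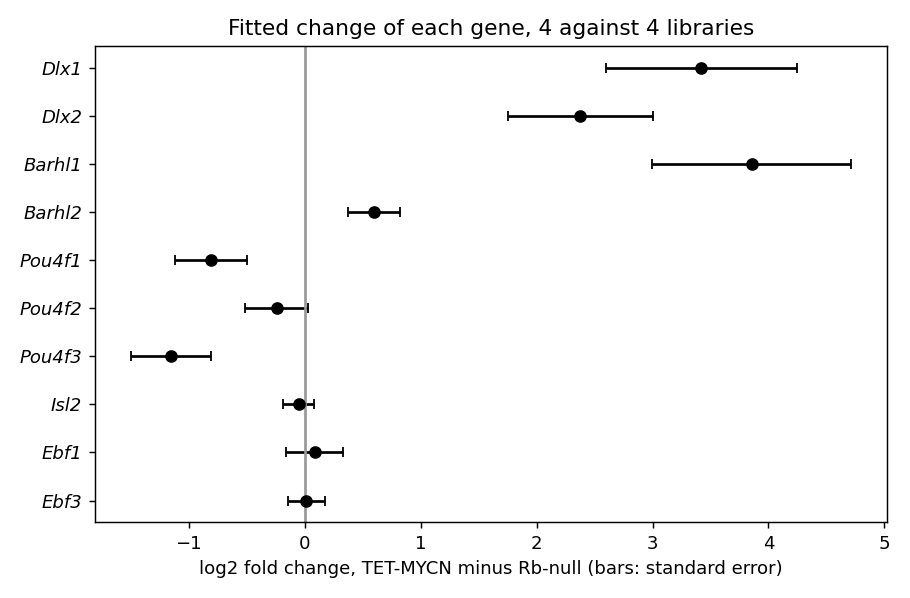
Fitted log2 fold change of each of the 10 genes, TET-MYCN minus Rb-null, with bars of 1 standard error, from a fit to all 8 libraries. Barhl1, Dlx1 and Dlx2 lie between 2.38 and 3.86, the 3 Brn3 genes between -1.15 and -0.24, and Isl2, Ebf1 and Ebf3 within 0.09 of 0.

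Over all 15106 genes tested, 9 passed an adjusted p of 0.05 in edgeR's quasi-likelihood test, a share of 0.0596%, and 0 of the 10 members were among them. At an unadjusted p under 0.05, 6 members passed, against 15.8% of all genes. Of these, 4 were higher in the TET-MYCN group, against 8.06% of all genes, and 2 were lower, against 7.72%. DESeq2 called 3 members (Dlx1, Dlx2 and Barhl1) against 3.2% of all genes, and limma-voom called 0 members and 0 genes. Groups that do not overlap were found for 2 members, Dlx2 and Barhl1, against 7.65% of all genes, and both were higher in TET-MYCN, against 4.36%. No member had groups that do not overlap in the other direction, against 3.29% of all genes. The median log2 fold change was 0.05 over the 10 members and 0.01 over all genes. Since the members were chosen on this comparison, nothing is read from these counts. Without TET-MYCN 3, edgeR called 230 genes, among them Dlx1 and Barhl1, and without TET-MYCN 2 it called 132 genes and no member. Without any other single library it called 0 or 1 gene.

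The Dlx and Barhl genes were then set against the Brn3 genes within each library. The measure was the mean log2 CPM of Dlx1, Dlx2, Barhl1 and Barhl2 minus that of Pou4f1, Pou4f2 and Pou4f3, with a prior count of 2, in which library scaling cancels almost wholly. The difference was -0.16, 1.10, -1.74 and -1.14 in Rb-null 1 to 4 and 3.42, 1.33, 1.12 and 3.72 in TET-MYCN 1 to 4. It was negative in 3 of 4 Rb-null libraries and positive in all 4 TET-MYCN libraries. The groups stand next to each other without overlap, since Rb-null 2 and TET-MYCN 3 nearly coincide. The means were -0.49 ± 1.24 and 2.40 ± 1.36 (SD, n = 4 each), a difference of 2.88. The choice of members fixes much of this direction.

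The 2 sides of the contrast contributed unequally. The mean log2 CPM of the Dlx and Barhl genes was 1.84 ± 0.69 in the Rb-null group and 4.08 ± 1.31 in the TET-MYCN group, a difference of 2.23. The mean of the Brn3 genes was 2.33 ± 0.58 and 1.68 ± 0.18, a difference of -0.65. The Dlx and Barhl side ran from 2.68 in TET-MYCN 3 to 5.37 in TET-MYCN 4, whereas the Brn3 side ran only from 1.56 to 1.94 in that group. In the Rb-null group the sides mirrored each other. Rb-null 2 had the highest Dlx and Barhl mean, 2.61, and the lowest Brn3 mean, 1.51, and Rb-null 3 had the lowest Dlx and Barhl mean, 1.10, and the highest Brn3 mean, 2.84. Rb-null 2 and 3 also had the lowest and highest summed rod markers of their group, 3078 and 14931 CPM, and the highest and lowest summed progenitor markers, 1101 and 404 CPM. The part of these in the contrast was not tested. Leaving out Rb-null 2 and 3, a choice made with the data in view, gave a difference between groups of 3.05, and leaving out TET-MYCN 1 and 4 gave 1.71.

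Summed CPM gave a less even picture, since Barhl2 makes up most of the sum on its side in every library but TET-MYCN 1 and 4. The ratio of summed Dlx and Barhl to summed Brn3 CPM was 2.44, 5.08, 1.35 and 1.70 in Rb-null 1 to 4 and 12.1, 4.03, 4.17 and 13.7 in TET-MYCN 1 to 4. On this scale Rb-null 2 lies above TET-MYCN 2 and 3, so the groups overlap. The log2 of this ratio differed by 1.65 between groups.

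**Figure D3:**
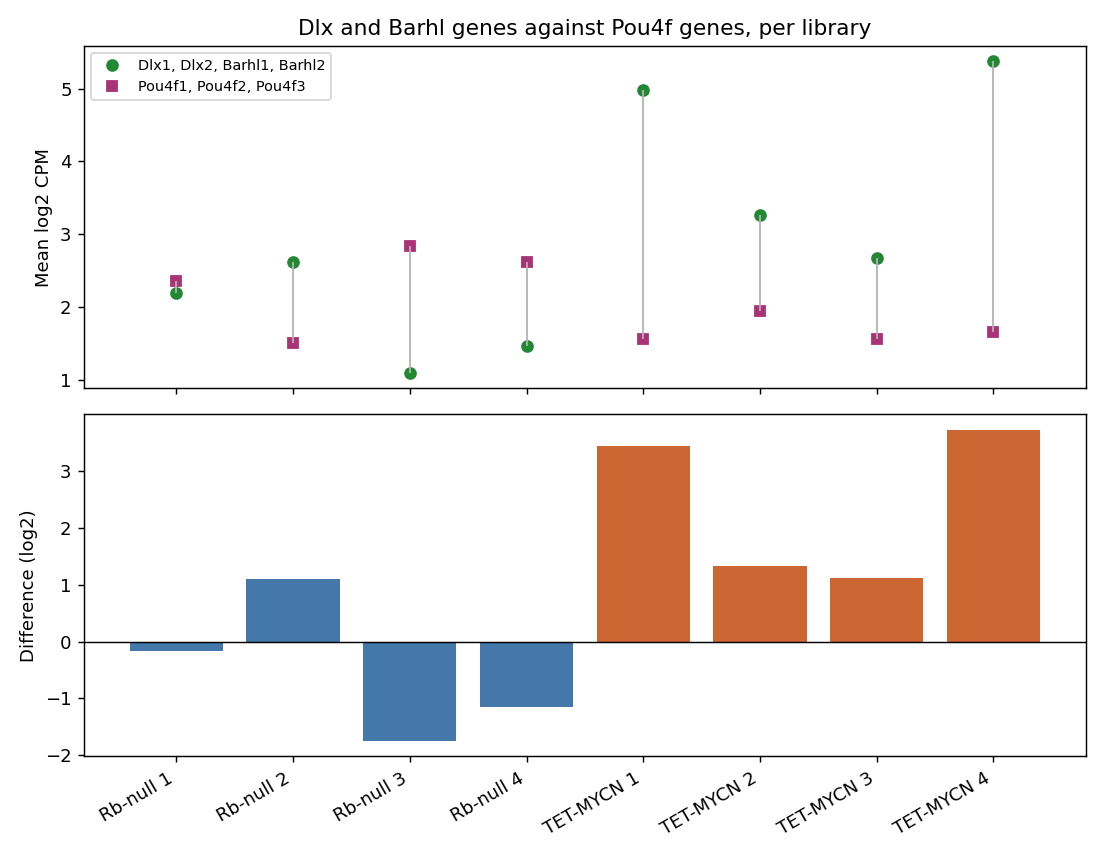
Upper panel, mean log2 CPM of the 4 Dlx and Barhl genes (circles) and of the 3 Brn3 genes (squares) in each library, and lower panel, their difference on the log2 scale. The difference is below 0 in Rb-null 1, 3 and 4, nearly equal in Rb-null 2 (1.10) and TET-MYCN 3 (1.12), and highest in TET-MYCN 1 and 4 (3.42 and 3.72).

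Levels of different genes were compared per kilobase of exon (CPM per kb), with merged exon lengths from GENCODE M21, whose gene models may differ from those used for counting. In the Rb-null group Barhl2 led at 18.0 ± 2.21 CPM per kb, followed by Ebf3 at 7.61 ± 1.76 and Isl2 at 6.47 ± 0.935. Barhl2 did not overlap with Ebf3, whereas Ebf3 and Isl2 overlapped (5.73 to 9.69 and 5.11 to 7.11 CPM per kb). Pou4f1 at 2.83 ± 1.12, Pou4f2 at 2.04 ± 0.578, Ebf1 at 1.09 ± 0.231 and Dlx2 at 0.860 ± 0.513 CPM per kb came next, each overlapping its neighbour in this order, while no Pou4f1 library reached the lowest Isl2 library. Pou4f3, Barhl1 and Dlx1 were lowest, at 0.664 ± 0.274, 0.365 ± 0.159 and 0.279 ± 0.245 CPM per kb, with overlapping ranges.

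In the TET-MYCN group the first 3 places by mean level were the same. Barhl2 stood at 27.3 ± 9.81, Ebf3 at 7.68 ± 0.742 and Isl2 at 6.24 ± 0.256 CPM per kb. Barhl1, Dlx2 and Dlx1 came next at 5.41 ± 5.11, 4.51 ± 3.44 and 3.03 ± 2.68 CPM per kb, above Pou4f2 at 1.72 ± 0.496 and Pou4f1 at 1.61 ± 0.448. Ebf1 at 1.16 ± 0.343 and Pou4f3 at 0.294 ± 0.0466 CPM per kb were last. The places of Barhl1, Dlx2 and Dlx1 rest on TET-MYCN 1 and 4, since their lowest libraries were at 0.691, 1.56 and 0.563 CPM per kb, under the highest Brn3 libraries (2.42 for Pou4f2 and 2.21 for Pou4f1). Barhl2 did not overlap with Ebf3, nor Ebf3 with Isl2, nor Ebf1 with Pou4f3, and the other neighbours in this order overlapped.

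**Figure D4:**
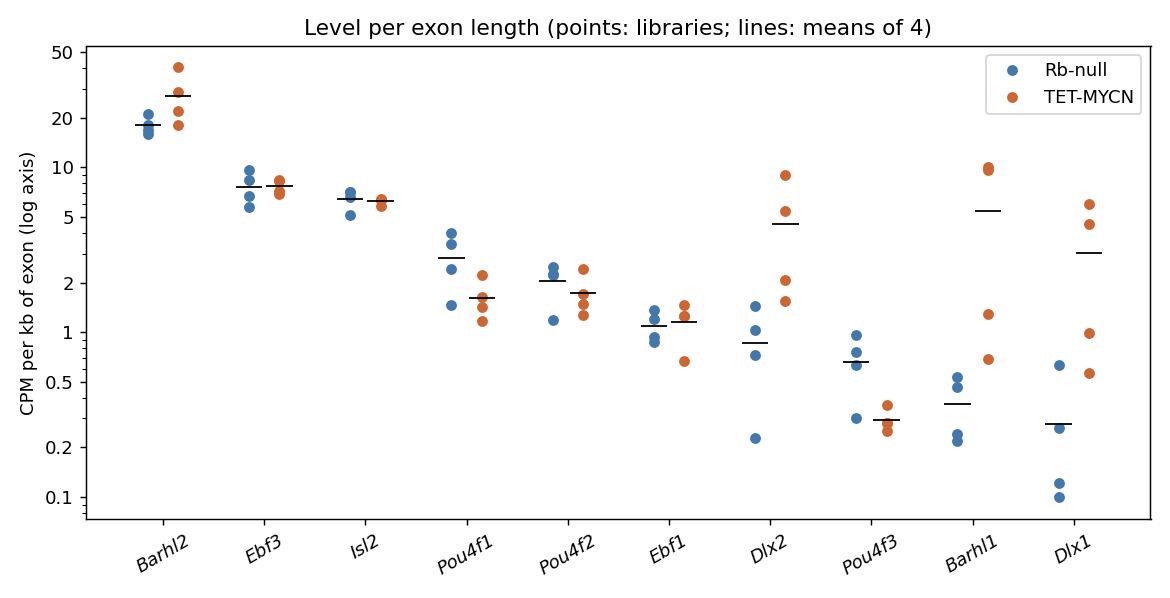
CPM per kb of exon (log axis) of the 10 genes, in the order of their Rb-null means, with a point per library and a line at the mean of each group of 4. Barhl2, Ebf3 and Isl2 lead in both groups, while Barhl1, Dlx2 and Dlx1 spread over the widest ranges in the TET-MYCN group.

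The genes also differed in how much they varied within a group. The SD of log2 CPM among the TET-MYCN libraries was 1.96 for Barhl1, 1.64 for Dlx1 and 1.17 for Dlx2, and 0.06 for Isl2. Among the Rb-null libraries it was 1.11 for Dlx1, 1.07 for Dlx2 and 0.17 for Barhl2. Pou4f3 varied less among the TET-MYCN libraries (0.19) than among the Rb-null libraries (0.65), with few counts in each.

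Profiles over the 8 libraries were compared by the root mean square difference of log2 CPM, after subtracting each gene's own mean. This is a description over 8 libraries that share 2 groups. Among the members, Pou4f1 and Pou4f3 lay closest, at 0.19, and Dlx1 lay closer to Barhl1 (0.49) than to its neighbour Dlx2 (0.72). Isl2 and Ebf3 lay at 0.20, while the root mean square of their own profiles was 0.14 and 0.22. Barhl2 lay closer to Ebf1 (0.33) than to Barhl1 (1.597), but this measure also depends on how widely each gene varies. The root mean square of the own profile was 0.42 for Barhl2, 0.36 for Ebf1 and 1.98 for Barhl1. Both Barhl genes were highest in TET-MYCN 1 and 4. Among 14477 other genes with a mean of at least 1 CPM, the nearest to Dlx1 were D930028M14Rik (0.70), Mylk2 (0.71) and Edaradd (0.75). D930028M14Rik stood at 8.53, 2.21, 0.899 and 8.01 CPM in TET-MYCN 1 to 4 and at 0.255 to 0.365 CPM in the Rb-null group. The nearest to Barhl2 were Uck2, a uridine-cytidine kinase (0.07), Zbtb12 (0.09) and Crtap (0.10). Uck2 stood at 40.1, 30.7, 22.2 and 52.6 CPM in TET-MYCN 1 to 4. The nearest to Pou4f2 were Ccdc89 (0.21), Ankrd6 (0.22) and Adcyap1, the gene of the neuropeptide PACAP (0.22). The nearest to Ebf3 were Nr2e1, the progenitor and glial nuclear receptor Tlx (0.07), Ankrd34b (0.08) and Pask (0.10).

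Other transcription factors of ganglion cell fate had both signs. Of 23 genes tested, 14 were positive and 9 negative in log2 fold change, and the median was 0.09 against 0.01 over all genes. Leaving out single libraries gave medians from 0.04 (without TET-MYCN 4) to 0.16 (without Rb-null 2). The median was 0.0034 when TET-MYCN 1 and 4 were both left out. By edgeR's quasi-likelihood test 0 passed as higher and 0 as lower at an adjusted p of 0.05. An unadjusted p under 0.05 was found for 6, against 15.8% of all genes. Of these, 4 were higher and 2 lower in TET-MYCN, against 8.06% and 7.72% of all genes. DESeq2 called 3, against 3.2% of all genes, and limma-voom called 0. The smallest p-values were those of Foxp2, Atoh7 and Eya2, the 3 that DESeq2 called. Groups did not overlap for these 3, all higher in TET-MYCN, against 4.36% of all genes. The gaps were narrow for Eya2 and Foxp2, at 3.99 and 3.88 CPM in TET-MYCN 3 (71 and 69 counts) against 3.46 and 3.21 CPM in Rb-null 1 (68 and 63 counts). Atoh7, the factor upstream of the Brn3 genes, stood at 1.02, 1.34, 0.918 and 0.538 CPM in Rb-null 1 to 4 and at 3.09, 3.85, 3.37 and 14.8 CPM in TET-MYCN 1 to 4. It was thus above the Rb-null range in TET-MYCN 3, where the Dlx genes were close to Rb-null 2 (2.70 ± 0.57, adjusted p = 0.151, edgeR's quasi-likelihood test). Foxp2, a forkhead factor of ganglion cell subtypes, stood at 2.62 to 3.21 CPM in the Rb-null group and at 12.0, 8.96, 3.88 and 9.52 CPM in TET-MYCN 1 to 4 (1.55 ± 0.31, adjusted p = 0.132 by the same test). Eya2, a transcriptional coactivator and phosphatase, was at 2.25 to 3.46 and 3.99 to 9.57 CPM (1.21 ± 0.29, adjusted p = 0.158).

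Amacrine and horizontal fate factors were mostly positive. Of 24 genes tested, 19 were positive and 5 negative, beside 7885 positive of all 15106 genes, and the median log2 fold change was 0.26. Without TET-MYCN 1 and 4 the median was 0.10. Summed horizontal cell markers were highest in those 2 libraries, at 1317 and 858 CPM against 375 to 478 CPM in the Rb-null group. Of these markers, Lhx1, Onecut1, Onecut2 and Prox1 belong to this list as well, so the 2 observations are not separate. The part of cell composition in this list was not tested. By edgeR's test 0 passed as higher and 0 as lower, and 5 had an unadjusted p under 0.05, against 15.8% of all genes. DESeq2 called 1 (Lhx9), against 3.2% of all genes, and limma-voom called 0. Lhx9, a LIM homeodomain factor of amacrine subsets, stood at 13.4 to 20.8 CPM in the Rb-null group and at 41.3, 32.0, 19.3 and 34.6 CPM in TET-MYCN 1 to 4 (0.95 ± 0.23, adjusted p = 0.158, edgeR's quasi-likelihood test). Onecut2, a horizontal and ganglion cell factor, stood at 15.2 to 29.3 CPM and at 126, 47.7, 20.7 and 70.9 CPM (1.51 ± 0.45, adjusted p = 0.194). Both were highest in TET-MYCN 1, and TET-MYCN 3 lay within the Rb-null range for both. Sox2, of progenitors, glia and some amacrine cells, averaged 62.9 ± 12.6 and 94.5 ± 19.1 CPM (0.59 ± 0.18, adjusted p = 0.194), and it lies within the locus of Sox2ot, whose reads may not be fully separate.

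Genes reported to lie downstream of Dlx factors shared no direction. Of 5 tested, 3 were positive and 2 negative, and the median log2 fold change was 0.15. The sign of this median was not stable: it was -0.06 without the filter on low counts, -0.07 in DESeq2 and -0.02 without TET-MYCN 1 and 4, and it ran from 0.03 (without TET-MYCN 4) to 0.29 (without TET-MYCN 3) when single libraries were left out. By edgeR's quasi-likelihood test 0 passed and 0 had an unadjusted p under 0.05, against 15.8% of all genes. DESeq2 called 0, against 3.2% of all genes, and limma-voom called 0. Gad1 and Gad2, the GABA-synthesising enzymes, had opposite signs. Gad1 stood at 157 to 194 CPM in the Rb-null group and at 104, 204, 154 and 79.9 CPM in TET-MYCN 1 to 4, lowest in the libraries where Dlx1 was highest (-0.39 ± 0.25, adjusted p = 0.478, edgeR's quasi-likelihood test). Gad2 stood at 54.1 to 72.3 CPM and at 85.8, 80.8, 59.1 and 80.8 CPM (0.31 ± 0.14, adjusted p = 0.326). Slc32a1, the vesicular GABA transporter, was at 140 to 185 and 105 to 161 CPM (-0.27 ± 0.14, adjusted p = 0.379).

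Ganglion cell effector genes reported to depend on Brn3 factors had a median log2 fold change of -0.46, with 6 of 15 positive and 9 negative. The 6 ganglion cell markers summed above all belong to this list. Leaving out single libraries gave medians from -0.62 (without Rb-null 2) to -0.29 (without Rb-null 4). By edgeR's test 0 passed in either direction, and 7 had an unadjusted p under 0.05, against 15.8% of all genes. Of these, 2 were higher and 5 lower, against 8.06% and 7.72% of all genes. DESeq2 called 3, against 3.2% of all genes, and limma-voom called 0. The smallest p-values were those of Nefh, Ablim1 and Shh, the 3 that DESeq2 called as lower. Nefh, the heavy neurofilament, stood at 59.3, 48.4, 81.3 and 78.7 CPM in Rb-null 1 to 4 and at 31.6, 44.0, 43.2 and 27.4 CPM in TET-MYCN 1 to 4, groups that do not overlap (-0.87 ± 0.20, adjusted p = 0.158, edgeR's quasi-likelihood test). Ablim1, an actin-binding protein of retinal axons, was at 99.8 to 149 and 53.5 to 93.6 CPM, again without overlap (-0.69 ± 0.19, adjusted p = 0.170). Gap43 went the other way without overlap, at 75.4 to 88.4 and 90.8 to 156 CPM (0.53 ± 0.15, adjusted p = 0.184 by the same test). In this list groups did not overlap for 1 gene higher and 2 lower in TET-MYCN, against 4.36% and 3.29% of all genes. Shh, the hedgehog ligand that ganglion cells secrete, was at 3.11 to 6.12 and 2.52 to 3.29 CPM (-0.85 ± 0.24, adjusted p = 0.177). Like Pou4f1 and Pou4f3, Nefh was highest in Rb-null 3 and 4. Those libraries also had the highest sums of rod markers, 14931 and 11399.7 CPM, and the part of cell composition in these levels was not tested.

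**Figure D5:**
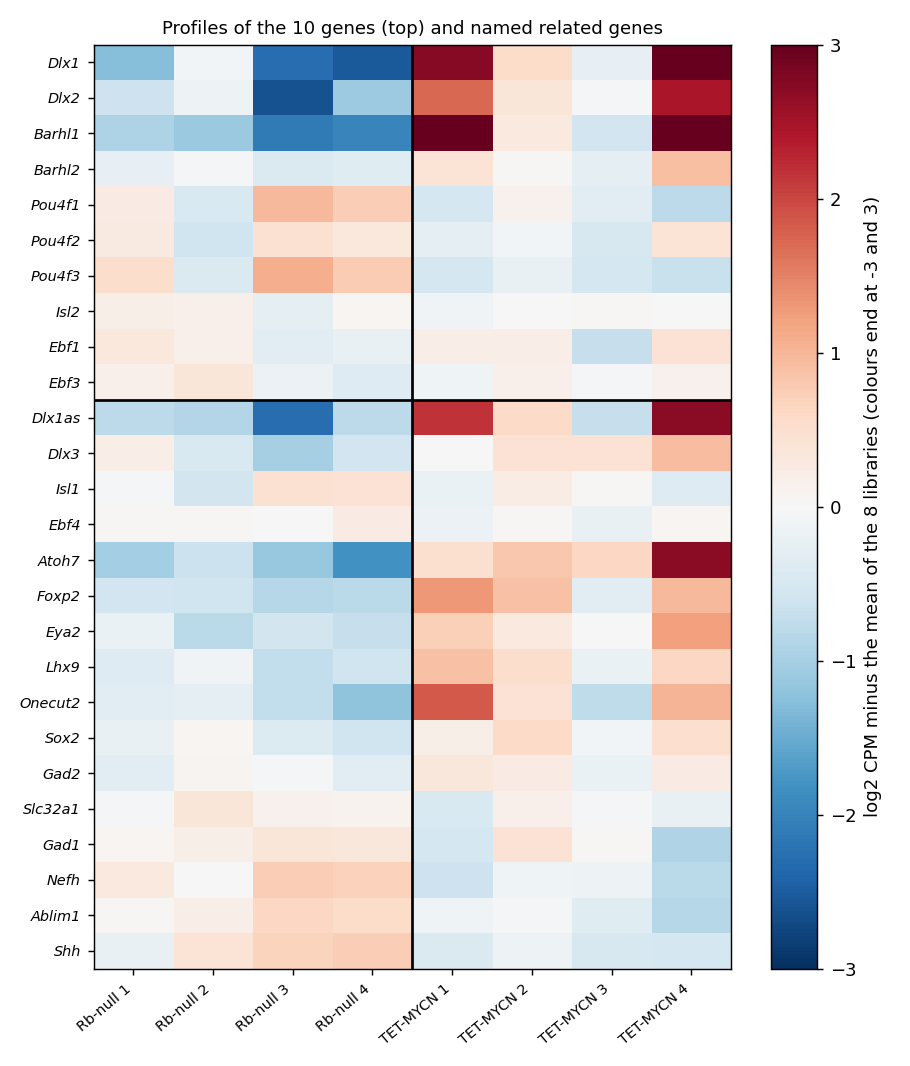
log2 CPM of each gene minus its mean over the 8 libraries (colour, red above and blue below), with libraries as columns, the 10 genes above the line and the named related genes below it. Dlx1, Dlx2, Barhl1 and Dlx1as are all red in TET-MYCN 1 and 4, as are Onecut2, Foxp2, Eya2 and Lhx9. Atoh7 is red in all 4 TET-MYCN libraries, and Pou4f1, Pou4f3 and Nefh are red in Rb-null 3 and 4.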

How the data were processed

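Peripheral retina RNA of 8 libraries, 4 per group, was selected with oligo-dT and made into NEBNext Ultra libraries, per the labels' protocols. The authors deposited raw whole-number counts, listed by gene symbol in a file per library. CASAVA 1.8.2, TopHat2 2.0.8b and HTSeq 0.5.4p3 on mm9 are named in the submitters' processing notes, while the sources used here give neither annotation nor strand setting. Reads outside genes, in several genes or at several places (28.3% to 31.7%) were left out of sizes and tests.

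Groups came from the titles. Counts were TMM-scaled and filterByExpr kept 15106 of 23284 genes. edgeR 4.0.16 (estimateDisp, robust glmQLFit, glmQLFTest, R 4.3.3) compared the groups, with Benjamini-Hochberg adjustment at 0.05 over all genes. Standard errors are the absolute log2 fold change over the square root of F. DESeq2 1.42.0, limma-voom (limma 3.58.1), 2 scalings, 2 filters, a replicate block and leaving out libraries were alternatives. The script was tested on simulated data. All pairs within a group differed by more than sampling noise. The members and gene lists were chosen with earlier results of these data known. Genes named were the members, the tested or detected paralogs, the 3 with the smallest p in each related list, the 3 nearest profiles of Dlx1, Barhl2, Pou4f2 and Ebf3, Mycn and Rb1. Also named were Gap43, whose groups did not overlap, and horizontal cell markers that are in a related list.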

Additional observations from a re-analysis of the deposited data

How the results depend on the processing

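The log2 fold changes of Dlx1, Dlx2, Barhl1, Barhl2, Pou4f1, Pou4f2, Pou4f3 and Isl2 kept their sign in every alternative run, while those of Ebf1 and Ebf3 changed sign in 3 and 4 of 17. Leaving out single libraries gave 2.84 to 4.17 for Dlx1, 1.79 to 2.74 for Dlx2, 3.37 to 4.22 for Barhl1, 0.35 (without TET-MYCN 4) to 0.75 for Barhl2, -1.02 to -0.59 for Pou4f1, -0.45 (without TET-MYCN 4) to -0.12 (without TET-MYCN 3) for Pou4f2, -1.39 to -0.93 for Pou4f3, -0.15 (without Rb-null 3) to -0.0051 (without Rb-null 1) for Isl2, -0.05 (without TET-MYCN 4) to 0.27 (without TET-MYCN 3) for Ebf1, -0.11 (without Rb-null 4) to 0.15 (without Rb-null 2) for Ebf3, and 2.44 to 3.41 for the contrast of Dlx and Barhl with Brn3 genes. The contrast was 3.31 with the Dlx genes alone, 2.45 with the Barhl genes alone and 2.97 with a prior count of 0.5. The count of genes called by edgeR, 9, became 17 without a filter, 533 with DESeq2, 0 with limma-voom (2262 unadjusted), and 0 to 230 without single libraries. It was 0 in both fits chosen after seeing the data, without TET-MYCN 1 and 4 and without Rb-null 2 and 3. In DESeq2, related genes called numbered 1 paralog (Dlx1as), 3 ganglion fate factors, 1 amacrine factor and 3 ganglion effector genes. Without single libraries edgeR called 0 to 1 paralogs, 0 to 2 ganglion fate factors and 0 to 3 amacrine and horizontal factors, in each case with calls only without TET-MYCN 3. With the replicate number as a block 3 genes were called, none a member. Same-numbered libraries had correlations of deviations from -0.29 to -0.04, which gave no sign of pairing by number. With 4 libraries per group they cannot exclude it. Within-number differences of the contrast had a mean of 2.88 ± 1.96 (SD). The cause of these changes was not tested. Depth limits Dlx1, Dlx2 and Barhl1 in the Rb-null libraries and Pou4f3 in all, where some libraries hold under 15 counts.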
